A study of Mus musculus with 4 samples.

Results

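The 10 genes described here, Retreg1, Retreg2, Retreg3, Atl2, Atl3, Rtn3, Rtn4, Reep5, Sec16a and Sec16b, encode proteins that shape the endoplasmic reticulum (ER), hand parts of it to autophagy or organize its exit sites. They were taken by name from the deposited table of transcript values, after its Ensembl transcripts were matched to mouse gene symbols of GENCODE release M21 (build GRCm38). All 10 were present, with 30 of the 25889 deposited transcripts, among 11502 gene symbols in all. RNA-Seq was performed on 4 groups of HT-22, a mouse cell line that was made from hippocampal neurons by immortalization. The Ctrl cells carried a negative control lentivirus (their genotype is labelled wild type), and the PGC-1α cells carried a lentivirus that overexpresses PGC-1α, the coactivator of mitochondrial genes encoded by Ppargc1a. All transfected cells were selected with puromycin. In the Ctrl+OGD and PGC-1α+OGD groups, such cells were also deprived of oxygen, glucose and serum for 2 h (OGD) and left to recover for 24 h. There was 1 library per group, so no difference below has a replicate check, no p value was computed, and no level can be said to differ from another beyond its spread. Poly(A) RNA of a whole culture was measured, and a change in the cells that make up the culture cannot be told apart from a change per cell.

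ER-phagy is the selective removal of ER pieces by autophagy. Receptors in the ER membrane, among them RETREG1 (also called FAM134B), its relatives RETREG2 and RETREG3, the long form of RTN3 and ATL3, bind LC3 or GABARAP proteins on the forming autophagosome. Most of them hold a reticulon homology domain, a membrane hairpin that bends the bilayer into tubules and sheet edges. Atlastins are GTPases that fuse ER tubules into a network, REEP5 and the reticulons keep the tubules curved, and the SEC16 proteins are scaffolds of the exit sites at which COPII vesicles form. Mutations in the human genes for RETREG1, ATL3 and some REEP proteins are known from inherited diseases of long axons.

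The table holds 1 value per transcript and library and does not name its unit. They were taken as FPKM, the fragment number per kb of transcript for a fixed number of mapped fragments. When each value was multiplied by its annotated transcript length in kb, the libraries summed to 77.7% to 78.5% of 1000000, the total that FPKM of a complete table would give. The number of reads is unknown. The check of the overexpression gave a summed Ppargc1a level of 0.900 FPKM in Ctrl and 0.103 in Ctrl+OGD, against 35.1 in PGC-1α and 8.41 in PGC-1α+OGD. Of 14 neuronal markers, 3 were among the deposited genes (Camk2a at 4.40 to 7.31 FPKM, Eno2 at 0.410 to 2.81 and Syp at 0.258 to 0.997). The other 11, among them Rbfox3, Map2, Tubb3 and Snap25, had no row in the table used here. Of 6 mesenchymal markers, 5 were deposited, Vim at 398 to 508 FPKM, Col1a2 at 236 to 265, Col1a1 at 156 to 198, Fn1 at 76.6 to 136 and Col3a1 at 2.94 to 5.39, while Thy1 had no row in the table used here. Of 6 markers each for astrocytes, microglia and oligodendrocytes, 3, 2 and 1 were deposited, and the highest of these was S100b at 10.0 to 18.4 FPKM. The labelled cell type, hippocampal neurons, is therefore used below only for the origin of the line.

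In the level of whole genes, with the deposited transcripts of each gene summed, few members moved. FPKM is corrected for length, so levels can be compared between genes. Rtn4 was the most abundant member with a mean of 54.4 FPKM over the 4 libraries, followed by Rtn3 (38.1), Retreg2 (27.7), Reep5 (23.9), Atl2 (20.6), Atl3 (19.5), Sec16a (17.4), Retreg3 (11.0), Retreg1 (9.41) and Sec16b (5.44). The highest library exceeded the lowest by 2.43-fold for Rtn4, by 1.83-fold for Rtn3 and by 1.63-fold for Sec16b, and by 1.20-fold (Atl3) to 1.54-fold (Atl2) for the others. The plot of levels by library shows the low points of both reticulons in PGC-1α+OGD.

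**Figure D1:**
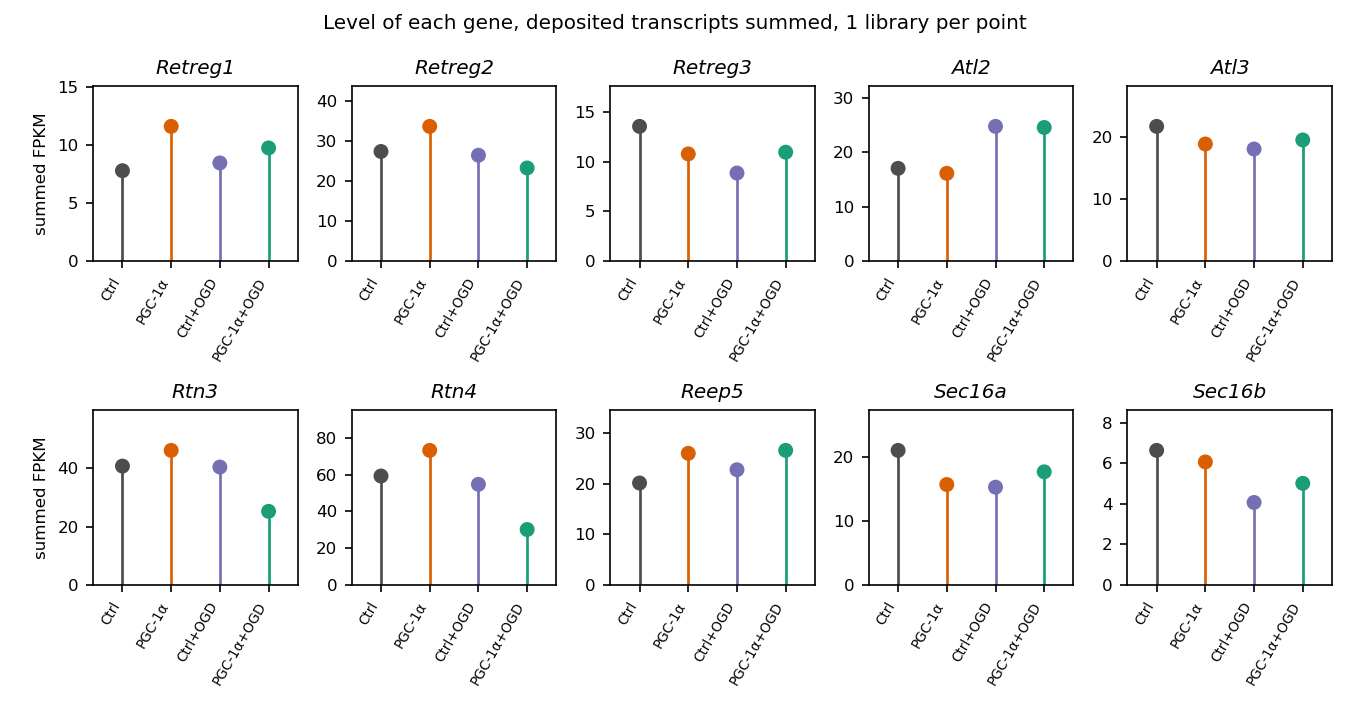
Summed FPKM (vertical axis, from 0) of the 10 genes in the 4 libraries, 1 point per library without replicates. Rtn3 and Rtn4 were lowest in PGC-1α+OGD (25.2 and 30.2 FPKM), while Atl2 was higher in the 2 OGD libraries (24.8 and 24.6) than in the others (17.1 and 16.1).

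A difference of at least 1.5-fold in log2(FPKM + 1) was called higher or lower, after the fold criterion in the study's methods. The question of each comparison is what PGC-1α did before or after OGD, or what OGD did in either kind of cell. The summed Ppargc1a level in PGC-1α+OGD was 0.240 times that in PGC-1α. PGC-1α+OGD vs PGC-1α therefore differs both in OGD and in the Ppargc1a level, which cannot be told apart. Between PGC-1α and Ctrl, 0 of the 10 members were past 1.5-fold, while 10.5% of the 10604 genes whose mean reached 1 FPKM were (4.91% higher and 5.63% lower). Between PGC-1α+OGD and Ctrl+OGD, 2 members, Rtn3 and Rtn4, were lower and 0 were higher, against 6.90% of all genes in either direction (3.82% lower and 3.08% higher). Between Ctrl+OGD and Ctrl, 1 member, Sec16b, was lower, against 13.9% in either direction (7.71% lower and 6.20% higher). Between PGC-1α+OGD and PGC-1α, Rtn3 and Rtn4 were lower, against 9.03% in either direction (5.22% lower and 3.82% higher). Nearest to the threshold, 0.585 on the log2 scale, were Sec16b in Ctrl+OGD vs Ctrl, at -0.591 and so just past it, and Atl2 in PGC-1α+OGD vs PGC-1α, at 0.578 and so just short of it. The median log2 fold change of the members was 0.05, 0.15, -0.08 and -0.10 in the same order, and that of all genes was -0.03, -0.01, -0.02 and 0.00. The first 2 comparisons share no library, and neither do the last 2, but each of the first shares a library with each of the last.

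The values of single transcripts moved more than those of the genes. Of the 30 deposited transcripts of the members, 23 had a mean of at least 1 FPKM. Of these 23, 8 were past 1.5-fold between PGC-1α and Ctrl (4 higher, 4 lower), 12 between PGC-1α+OGD and Ctrl+OGD (6 and 6), 7 between Ctrl+OGD and Ctrl (3 and 4) and 10 between PGC-1α+OGD and PGC-1α (5 and 5). Over all 18301 transcripts with such a mean, 25.4% were past it in the first of these comparisons (12.3% higher, 13.1% lower), 22.3% in the second (11.2% and 11.1%), 28.1% in the next (13.4% and 14.7%) and 25.3% in the last (12.2% and 13.1%). The transcripts of 1 gene share most of their exons, and a program has to divide the shared reads between them. How the authors' program divided them was not tested, and all values of single transcripts below are given as the table lists them. Because FPKM divides by length, a sum of FPKM also moves when reads pass from a long to a short transcript. For this reason a further scale was computed, in which each FPKM value was multiplied by the transcript length in kb before summing. It is called the fragment scale below, and the length was taken from GENCODE M21, where 24 of the 30 transcripts had the version that was deposited. On the fragment scale, 0 members were past 1.5-fold in PGC-1α vs Ctrl (background 12.1%, with 5.49% higher and 6.65% lower), 1 was lower in PGC-1α+OGD vs Ctrl+OGD (7.68%, with 3.44% higher and 4.23% lower), 2 were lower in Ctrl+OGD vs Ctrl (16.5%, with 6.91% higher and 9.59% lower), and 1 was higher and 2 lower in PGC-1α+OGD vs PGC-1α (10.6%, with 4.34% higher and 6.28% lower). The plot of fold changes sets both scales beside the most abundant transcript.

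**Figure D2:**
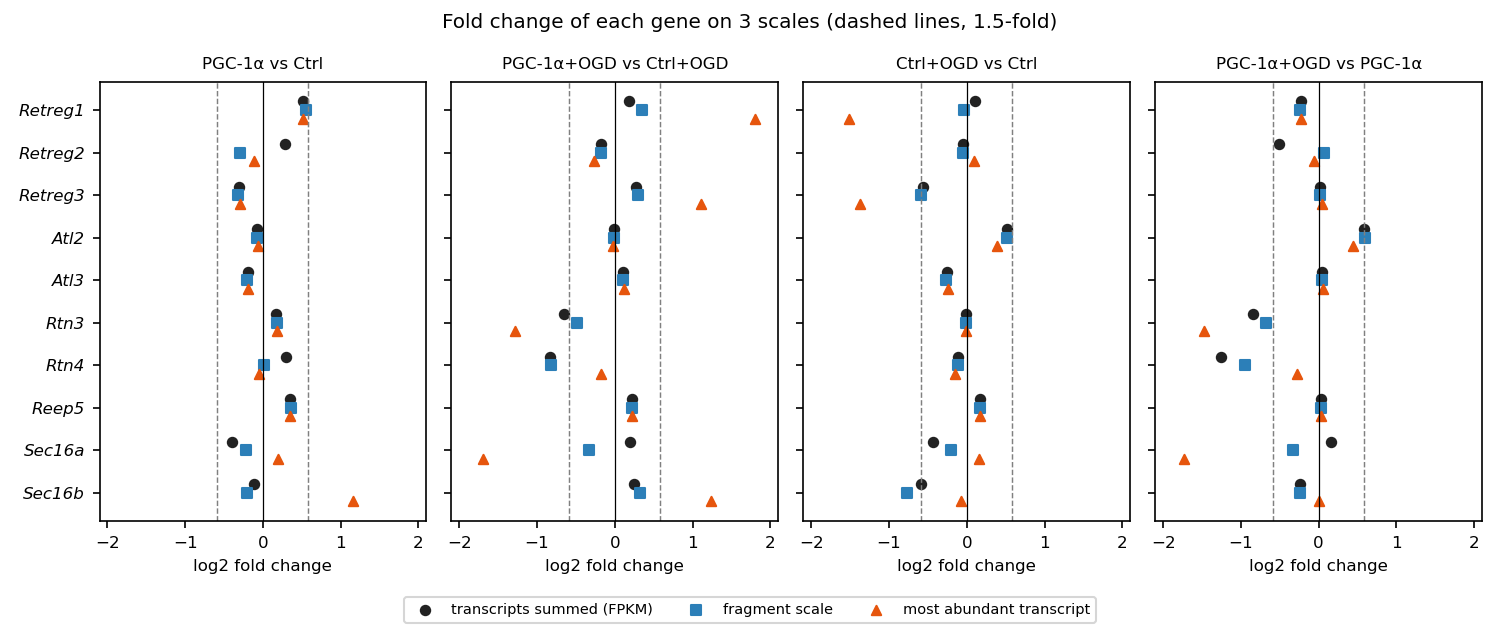
Log2 fold change (horizontal axis) of each gene in the 4 comparisons, from summed FPKM (circles), from the fragment scale (squares) and from the transcript with the highest mean (triangles), with dashed lines at 1.5-fold. Circles and squares lie close together for Retreg3, Atl2, Atl3 and Reep5, while the triangles of Retreg1 (1.81), Retreg3 (1.11) and Sec16b (1.24) in PGC-1α+OGD vs Ctrl+OGD lie far to the right of the circles (0.18, 0.28 and 0.25).

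Retreg1 (ENSMUSG00000022270, chr15:25843180-25973687, plus strand) encodes the best known ER-phagy receptor. Its summed level was 7.80 FPKM in Ctrl and 8.47 in Ctrl+OGD, against 11.6 in PGC-1α and 9.76 in PGC-1α+OGD. The gene was higher in each PGC-1α library than in its control, by 1.49 times without OGD and 1.15 times after it, and the log2 fold changes of 0.52 and 0.18 stayed below 1.5-fold. On the fragment scale the ratios were 1.49 and 1.28. The deposited transcripts begin at different places. Retreg1-201, with 1440 coding bases, starts 97522 bases upstream of Retreg1-205, and Retreg1-202 starts 185 bases downstream of Retreg1-205. The latter transcripts both have 1068 coding bases, lack the first 3 exons of Retreg1-201 and begin their coding sequence in an exon of their own, so that the N-terminal part of the receptor is missing. The splice junctions below, 15 bases on each side with the downstream exon in capitals, are shown because they tell the forms apart. They are from the GENCODE M21 transcripts, and both lead into exon 4 of Retreg1-201.
Retreg1-201 junction of exons 3 and 4, chr15:25895143 to 25964224: aagcctcactgaaagCTGGGAAGTCATCAA
Retreg1-205 junction of the first exon with exon 4, chr15:25941243 to 25964224: tggaccaggcagaagCTGGGAAGTCATCAA

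The long Retreg1-201 had 7.80 FPKM in Ctrl and 2.08 in Ctrl+OGD, against 11.6 in PGC-1α and 9.76 in PGC-1α+OGD. The short forms were listed at 0 in Ctrl, PGC-1α and PGC-1α+OGD. In Ctrl+OGD, Retreg1-205 had 4.92 FPKM and Retreg1-202 had 1.47. The short forms thus held 75.5% of the Retreg1 value in the Ctrl+OGD library and nothing of it in the other libraries. The first junction above occurs in 1 of the 8 annotated Retreg1 transcripts, and the second in 3, of which 2 are deposited. Of 6404 genes with 2 or more transcripts, 96.9% moved a smaller part of their value between transcripts in PGC-1α+OGD vs Ctrl+OGD than Retreg1 did, and the median gene moved 8.77%.

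The same kind of split start was found in Sec16b (ENSMUSG00000026589, chr1:157506728-157568425, plus strand), the shorter of the SEC16 scaffolds. Its summed level was 6.63 FPKM in Ctrl and 4.07 in Ctrl+OGD, against 6.07 in PGC-1α and 5.01 in PGC-1α+OGD. The gene was lower in Ctrl+OGD than in Ctrl, with a log2 fold change of -0.59, just past 1.5-fold (-0.77 on the fragment scale). It was not past 1.5-fold with median ratio scaling (-0.57). Between PGC-1α and Ctrl the summed log2 fold change was -0.11. Under that level, transcripts with different starts changed places with PGC-1α. Sec16b-201 and Sec16b-202 start 19337 and 19419 bases upstream of Sec16b-203, and all of them have the same coding length of 3153 bases. The junctions that join their 5′ exons to the first coding exon are as follows, again with the downstream exon in capitals.
Sec16b-201 and Sec16b-202 junction, chr1:157524853 to 157529164: tcacggcctagcgtgGAAATTAAAGTAACT
Sec16b-203 junction, chr1:157526224 to 157529164: gagccatcaaagcagGAAATTAAAGTAACT

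Sec16b-203 had 4.89 FPKM in Ctrl and 1.65 in Ctrl+OGD, against 0.0155 in PGC-1α and 0.0138 in PGC-1α+OGD. Sec16b-201 had 0.691 and 0.611 FPKM in the control libraries and 2.79 and 2.80 in the PGC-1α libraries. Sec16b-202 had 0.825 and 0.948 FPKM against 2.00 and 1.40. The control and PGC-1α libraries did not overlap in any of these transcripts, as was the case for 30.0% of all 18301 transcripts. The upstream starts held 22.9% of the Sec16b value in Ctrl and 38.3% in Ctrl+OGD, but 79.1% in PGC-1α and 84.0% in PGC-1α+OGD. Together they were 3.16 times as high in PGC-1α as in Ctrl, and 2.70 times as high in PGC-1α+OGD as in Ctrl+OGD. These comparisons share no library. Sec16b-201 was higher and Sec16b-203 lower by 1.5-fold in both of them, as were 2.45% and 2.59% of all transcripts, while Sec16b-202 was past 1.5-fold without OGD (log2 fold change 0.72) and not after it (0.30). The last deposited form, Sec16b-204, is annotated with an incomplete 5′ end (2097 coding bases) and ranged from 0.231 to 1.25 FPKM.

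**Figure D3:**
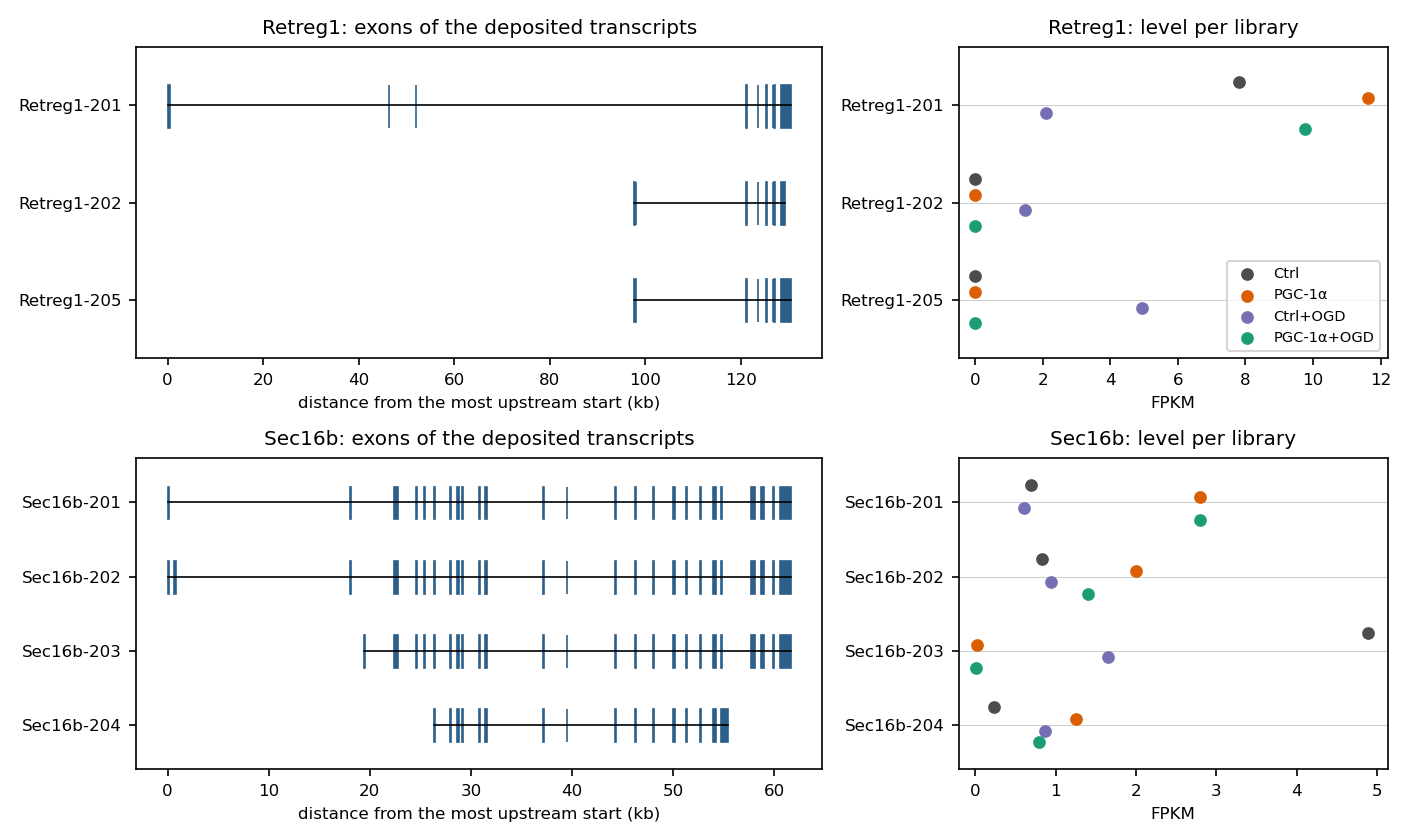
Left, exons of the deposited Retreg1 and Sec16b transcripts by distance from the most upstream start (kb). Right, FPKM of each transcript in the 4 libraries, 1 point per library. The short Retreg1 forms are above 0 in Ctrl+OGD alone, and Sec16b-203 is near 0 in the PGC-1α libraries, where Sec16b-201 is at 2.79 and 2.80 FPKM.

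RefSeq lists starts near both Sec16b positions and near both Retreg1 positions. The bases before them are printed because the levels of these transcripts differ by where they begin. They run on the plus strand of GRCm38.p6, from 250 bases before the RefSeq start up to the first exonic base of GENCODE or the RefSeq start. The RefSeq windows, which run to 50 bases after the start, were searched on both strands for 3 motifs, and a match would stand in capitals. The motifs are the extended site of estrogen-related receptors (TNAAGGTCA, in 1.28% of all 32851 windows), the NRF1 motif (GCGCA and GCGC with any base between them, 4.60%) and the CLEAR core bound by TFEB and TFE3 (TCACGTG, 3.77%). No match of a motif overlapped a match of another motif in the members. None was found around the 4 starts shown here, which says only that these letters are not in these windows.
Retreg1 upstream start, chr15:25843048-25843179: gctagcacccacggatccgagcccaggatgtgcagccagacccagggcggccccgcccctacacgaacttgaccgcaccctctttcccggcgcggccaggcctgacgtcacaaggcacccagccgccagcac
Retreg1 downstream start, chr15:25940452-25940701: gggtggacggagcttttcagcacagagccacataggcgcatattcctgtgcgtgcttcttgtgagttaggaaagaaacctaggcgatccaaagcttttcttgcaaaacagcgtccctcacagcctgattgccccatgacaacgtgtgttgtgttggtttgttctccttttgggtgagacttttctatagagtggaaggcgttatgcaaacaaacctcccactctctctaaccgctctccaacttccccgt
Sec16b upstream start, chr1:157506546-157506727: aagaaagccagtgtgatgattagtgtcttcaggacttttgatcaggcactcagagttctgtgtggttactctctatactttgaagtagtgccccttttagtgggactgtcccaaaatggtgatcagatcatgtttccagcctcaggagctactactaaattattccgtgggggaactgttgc
Sec16b downstream start, chr1:157525920-157526146: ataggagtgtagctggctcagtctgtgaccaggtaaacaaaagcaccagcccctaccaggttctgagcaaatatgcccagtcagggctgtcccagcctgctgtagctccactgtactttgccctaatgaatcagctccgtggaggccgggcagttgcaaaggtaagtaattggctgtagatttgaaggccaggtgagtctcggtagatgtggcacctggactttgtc

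Of the stretches printed above, the upstream one of Retreg1 (132 bases) is rich in G and C (70.5%). The downstream one (250 bases) is not (49.6%). For the Sec16b stretches (182 and 227 bases) these shares were 44.5% and 52.9%. Over 9 members with 15 starts, 5 genes had a match of any motif. Reep5 was left out of this search. The share of all genes with such a match was not computed, so this count cannot be called high or low. Relative to its start, the Retreg2 window held the NRF1 motif at -110 and the CLEAR core at -71, -51 and -50, the last of these on the opposite strand and overlapping the one before. Retreg3, Rtn3 and Atl3 held the NRF1 motif, and another RefSeq start of Retreg1 held the CLEAR core. A match describes letters and is not a binding site.

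Retreg3 (ENSMUSG00000017802, chr11:101096322-101119893, minus strand), also an ER-phagy receptor of the reticulon type, had a summed level of 13.6 FPKM in Ctrl and 8.87 in Ctrl+OGD, against 10.8 in PGC-1α and 11.0 in PGC-1α+OGD. The lowest value was that of Ctrl+OGD, 0.653 times Ctrl, with a log2 fold change of -0.56 that lay just inside 1.5-fold (on the fragment scale -0.59, just past it). Its transcripts differ by exon 4, 127 bases at chr11:101102883-101103009, which Retreg3-201 contains and Retreg3-202 skips. In Retreg3-202 the annotated coding sequence shrinks from 1398 to 855 bases and starts after the skipped exon. The junctions are shown with the downstream exon in capitals.
Retreg3-201 junction of exons 3 and 4, chr11:101103890 to 101103009: cttggacaacgagagCTGGGGCTTTGTGCA
Retreg3-202 junction of exons 3 and 5, chr11:101103890 to 101102090: cttggacaacgagagTTCTGCCTGCTGAGC

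Retreg3-201 had 13.3 FPKM in Ctrl and 4.53 in Ctrl+OGD, against 10.6 in PGC-1α and 11.0 in PGC-1α+OGD. Retreg3-202 had 4.33 FPKM in Ctrl+OGD, against 0.289 in Ctrl, 0.159 in PGC-1α and 0.000602 in PGC-1α+OGD. The skipped form held 48.9% of the Retreg3 value in Ctrl+OGD and at most 2.13% in the other libraries. Retreg1 and Retreg3 thus had in common that a form with a shorter coding sequence was listed at several FPKM in the Ctrl+OGD library alone.

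Retreg2 (ENSMUSG00000049339, chr1:75142778-75147913, plus strand), the other receptor gene of this family, had 27.4 FPKM in Ctrl and 26.5 in Ctrl+OGD, against 33.7 in PGC-1α and 23.3 in PGC-1α+OGD. The direction of PGC-1α vs Ctrl depended on the scale, with a log2 fold change of 0.29 in summed FPKM and -0.29 on the fragment scale. Retreg2-207, annotated as a fragment of 448 bases with both ends incomplete, had 13.3 FPKM in PGC-1α, against 0.0699 in Ctrl, 0.120 in PGC-1α+OGD and 0.0870 in Ctrl+OGD. Without this fragment the sum was 27.3 FPKM in Ctrl and 26.4 in Ctrl+OGD, against 20.4 in PGC-1α and 23.2 in PGC-1α+OGD. The main form, Retreg2-208, ranged from 16.8 to 20.6 FPKM, and Retreg2-201 was lowest in PGC-1α, at 1.08 FPKM against 7.39 in Ctrl, 5.95 in PGC-1α+OGD and 4.65 in Ctrl+OGD. The remaining forms, Retreg2-202 and Retreg2-203, stayed below 1 FPKM in every library.

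Rtn4 (ENSMUSG00000020458, chr11:29692947-29744331, plus strand) encodes the Nogo proteins, which curve ER tubules, and of which the long Nogo-A is also known as an inhibitor of axon growth. Its summed level was 59.3 FPKM in Ctrl and 54.8 in Ctrl+OGD, against 73.2 in PGC-1α and 30.2 in PGC-1α+OGD. PGC-1α+OGD was at 0.551 times Ctrl+OGD (log2 fold change -0.84) and at 0.412 times PGC-1α (-1.25). On the fragment scale these ratios were 0.567 and 0.518, so the level was lower by more than 1.5-fold on both scales. Without OGD, PGC-1α was at 1.24 times Ctrl in summed FPKM and at 1.01 times Ctrl on the fragment scale. Rtn4 shares exonic bases with Eml6 on the opposite strand, and whether strand was used in counting is not given in the sources used here.

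The Rtn4 forms differ by an exon of 57 bases (chr11:29705535-29705591) and an exon of 2361 bases (chr11:29706410-29708770) between the first exon and the reticulon homology exons. Rtn4-205 holds both and has 3486 coding bases, the length of Nogo-A. Rtn4-204 holds the short exon alone (1125 coding bases), and Rtn4-202 and Rtn4-210 hold neither (1068 coding bases). The junctions that set them apart are given with the downstream exon in capitals.
Rtn4-202 and Rtn4-210, exon 1 to the shared exon, chr11:29693693 to 29733633: gctcgggctcagtggTTGTTGACCTCCTGT
Rtn4-204, short exon to the shared exon, chr11:29705591 to 29733633: taccctcctctgcagTTGTTGACCTCCTGT
Rtn4-205, short exon to the long exon, chr11:29705591 to 29706410: taccctcctctgcagAAAAAATTATGGATT

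Rtn4-205 had 31.4 FPKM in Ctrl and 28.3 in Ctrl+OGD, against 30.4 in PGC-1α and 24.8 in PGC-1α+OGD, so the Nogo-A form stayed inside 1.5-fold in all 4 comparisons. Rtn4-202 had 24.1 FPKM in Ctrl and 23.4 in Ctrl+OGD, against 4.47 in PGC-1α and 1.21 in PGC-1α+OGD. Rtn4-210 was listed at 0 in 3 libraries and at 2.37 FPKM in PGC-1α+OGD. The transcripts without either exon together were lower in both PGC-1α libraries, at 0.185 times Ctrl and 0.153 times Ctrl+OGD. Rtn4-204, with the short exon, had 38.3 FPKM in PGC-1α, against 3.73 in Ctrl, 1.78 in PGC-1α+OGD and 3.05 in Ctrl+OGD. In PGC-1α cells without OGD, all forms lacking the long exon, which encode Nogo-B variants, summed to 42.8 FPKM, more than the 27.9 of Ctrl (1.54 times). In PGC-1α+OGD they summed to 5.36 FPKM, against 26.5 in Ctrl+OGD, and Rtn4-205 made up 82.2% of the gene.

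Rtn3 (ENSMUSG00000024758, chr19:7425901-7483281, minus strand) is the reticulon whose long form acts as an ER-phagy receptor of tubules through a stretch that the short form lacks. Its summed level was 40.7 FPKM in Ctrl and 40.4 in Ctrl+OGD, against 46.1 in PGC-1α and 25.2 in PGC-1α+OGD. PGC-1α+OGD was at 0.624 times Ctrl+OGD (log2 fold change -0.66) and 0.547 times PGC-1α (-0.85). On the fragment scale, the first difference was inside 1.5-fold (-0.48) and the second was past it (-0.67). The other 3 libraries lay between 40.4 and 46.1 FPKM. Rtn3 shares exonic bases with 2700081O15Rik on the opposite strand, and the 3 deposited Rtn3 transcripts carry a version number that differs from the annotation used.

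Rtn3-201 (768 coding bases) has an exon of 57 bases after exon 1, Rtn3-204 (2835 coding bases) has an exon of 2124 bases in that place (chr19:7456300-7458423), and Rtn3-203 (711 coding bases) has neither. The long exon distinguishes the receptor form, so its junction from exon 1 is printed beside that of Rtn3-203, with the downstream exon in capitals.
Rtn3-204, chr19:7482939 to 7458423: gctcctcgtgtgcggCGGGATTGAGCTCTC
Rtn3-203, chr19:7482939 to 7435138: gctcctcgtgtgcggTGCACGATCTGATTT

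Rtn3-201 had 40.6 FPKM in Ctrl and 40.3 in Ctrl+OGD, against 46.1 in PGC-1α and 15.9 in PGC-1α+OGD. The long Rtn3-204 was listed at 5.33 FPKM in PGC-1α+OGD and at 0 in the other libraries. Rtn3-203 had 3.94 FPKM in PGC-1α+OGD and at most 0.0376 FPKM in the other libraries. In PGC-1α+OGD the form with the long exon made up 21.2% of the Rtn3 value. In PGC-1α+OGD, the summed forms without the long exon were at 0.492 times Ctrl+OGD for Rtn3 and 0.202 times for Rtn4. Within these sums Rtn3-203 and Rtn4-210 were higher there. The form with the long exon was near its other values for Rtn4 and was listed in that library alone for Rtn3. Of 6404 genes with 2 or more transcripts, 85.3% moved a smaller part of their value in PGC-1α+OGD vs Ctrl+OGD than Rtn3 did. For Rtn4 this was 86.4%.

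**Figure D4:**
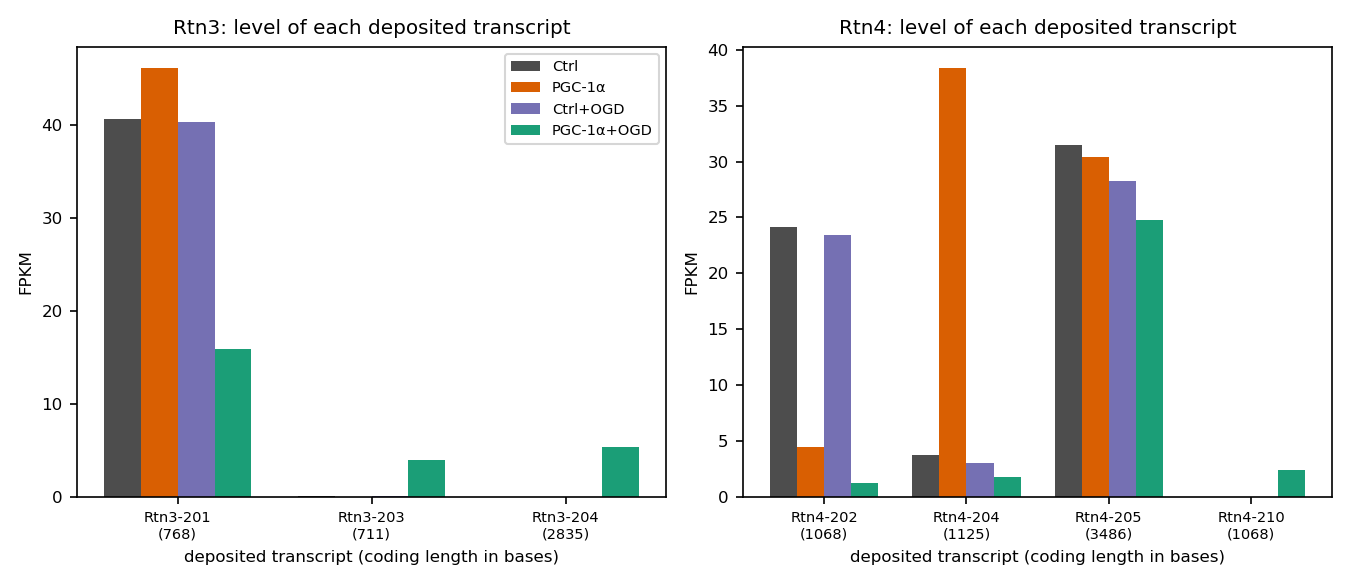
FPKM (vertical axis, from 0) of each deposited Rtn3 and Rtn4 transcript, with the coding length in parentheses and 1 bar per library. Rtn3-204 and Rtn3-203 are visible in PGC-1α+OGD alone, Rtn4-205 lies between 24.8 and 31.4 FPKM, and Rtn4-204 stands out at 38.3 FPKM in PGC-1α.

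Of the atlastins, Atl2 (ENSMUSG00000059811, chr17:79848390-79896123, minus strand) was the member with the largest increase after OGD in either kind of cells. Its summed level was 17.1 FPKM in Ctrl and 24.8 in Ctrl+OGD, against 16.1 in PGC-1α and 24.6 in PGC-1α+OGD. The level after OGD was 1.45 times that without it in control cells and 1.52 times in PGC-1α cells, comparisons that share no library. Both OGD libraries lay above both others, as in 23.2% of all genes (48.0% lay above or below). The log2 fold changes of 0.51 and 0.58 lay just inside 1.5-fold, and on the fragment scale they were 0.52 and 0.59, the latter just past it. With PGC-1α the level was 0.946 times Ctrl and, after OGD, 0.992 times Ctrl+OGD. The main transcript Atl2-201 had 16.5 and 15.8 FPKM without OGD and at least 21.7 FPKM after it. Atl2-202, which skips exon 2 (245 bases, chr17:79875802-79876046) and has 1236 coding bases in place of 1749, had 0.532 FPKM in Ctrl and 0.383 in PGC-1α, against 2.88 in PGC-1α+OGD and 2.79 in Ctrl+OGD. Of all transcripts, 42.7% showed no overlap of OGD libraries with the others, as both Atl2 transcripts did. The share of Atl2-202 was at most 3.12% of the gene without OGD and 11.3% and 11.7% after it. The part of the Atl2 value that moved between transcripts with OGD, 8.13% in control cells and 9.32% in PGC-1α cells, was close to that of the median gene (9.41% and 9.66%). The junctions show the skip, with the downstream exon in capitals.
Atl2-201 junction of exons 1 and 2, chr17:79895909 to 79876046: ctacgacctccctagGTGAGGATTATGAAG
Atl2-202 junction of exons 1 and 3, chr17:79895909 to 79865176: ctacgacctccctagGATTCTCAAAGCTGG

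Atl3 (ENSMUSG00000024759, chr19:7494040-7539674, plus strand), the atlastin that serves as an ER-phagy receptor through GABARAP, was the steadiest member. It had 21.6 FPKM in Ctrl and 18.0 in Ctrl+OGD, against 18.8 in PGC-1α and 19.4 in PGC-1α+OGD, with log2 fold changes between -0.25 and 0.11. Atl3-201 made up at least 97.6% of its value in every library. Reep5 (ENSMUSG00000005873), a hairpin protein of ER tubules with 1 deposited transcript, had 20.2 FPKM in Ctrl and 22.8 in Ctrl+OGD, against 26.1 in PGC-1α and 26.6 in PGC-1α+OGD. It was higher in both PGC-1α libraries than in both control libraries, by 1.29 times without OGD and 1.17 times after it, and no log2 fold change reached 1.5-fold (0.35 and 0.21). The same lack of overlap, in either direction, was found in 29.6% of all genes (12.8% higher). Of 5 annotated Reep5 transcripts, 1 is in the deposited table. Whether reads were divided between it and the others is not known.

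Sec16a (ENSMUSG00000026924, chr2:26409431-26445216, minus strand), the main scaffold of ER exit sites, had 20.98 FPKM in Ctrl and 15.2 in Ctrl+OGD, against 15.7 in PGC-1α and 17.6 in PGC-1α+OGD. No comparison passed 1.5-fold, and the direction of PGC-1α+OGD vs Ctrl+OGD depended on the scale (0.20 in summed FPKM, -0.34 on the fragment scale). The forms with the full coding sequence, Sec16a-201 and Sec16a-202 (7071 and 7131 coding bases), together had 10.0 FPKM in Ctrl and 11.1 in Ctrl+OGD, against 11.3 in PGC-1α and 4.62 in PGC-1α+OGD. Sec16a-208, which is annotated with an incomplete 5′ end (2719 coding bases), had 9.72 FPKM in Ctrl and 3.36 in Ctrl+OGD, against 2.60 in PGC-1α and 11.2 in PGC-1α+OGD. The remaining form, Sec16a-205, a fragment of 740 bases, ranged from 0.785 to 1.81 FPKM.

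**Figure D5:**
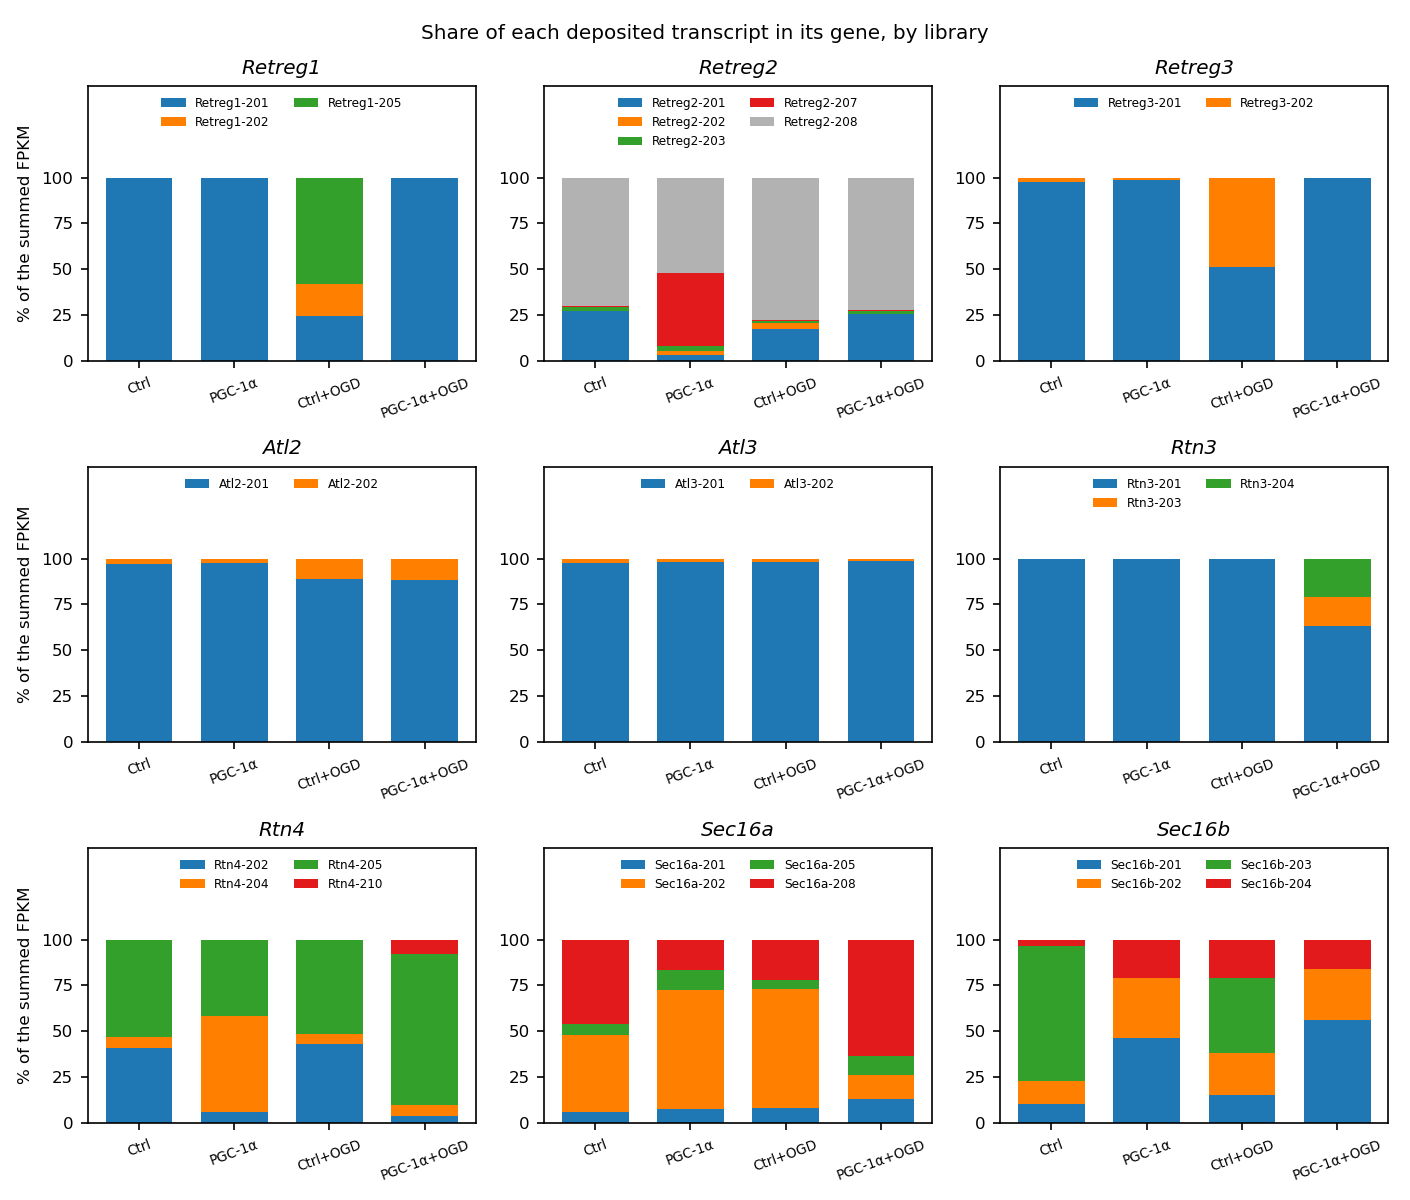
Share of each deposited transcript (per cent of the summed FPKM, vertical axis) in the 4 libraries for the 9 genes with 2 or more deposited transcripts. The Ctrl+OGD bars of Retreg1 and Retreg3, the PGC-1α bar of Retreg2 and the PGC-1α+OGD bar of Rtn3 stand apart from the other libraries, Sec16b-203 is near 0% in both PGC-1α libraries, and Atl3-201 makes up at least 97.6% in every library.

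Among 4 lists of other genes of these processes, the counts past 1.5-fold lay near the background. The lists name 84 genes, of which 77 had a summed mean of at least 1 FPKM. Of these 77, 1 was higher and 6 lower in PGC-1α vs Ctrl (9.09%, against 10.5% of all genes), 4 and 1 in PGC-1α+OGD vs Ctrl+OGD (6.49%, against 6.90%), 5 and 5 in Ctrl+OGD vs Ctrl (13.0%, against 13.9%), and 6 and 3 in PGC-1α+OGD vs PGC-1α (11.7%, against 9.03%). Their median log2 fold changes were -0.02, -0.02, 0.01 and 0.03.

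Of 21 other ER shaping genes, 0 were past 1.5-fold in PGC-1α+OGD vs PGC-1α, against 9.03% of all genes. In PGC-1α vs Ctrl 1 was higher (10.5% of all genes in either direction). In PGC-1α+OGD vs Ctrl+OGD 2 were higher and 1 lower (6.90%), as in Ctrl+OGD vs Ctrl (13.9%). In control cells, Reep4 (24.6 to 39.9 FPKM) and Reep6 (13.1 to 28.5) were higher after OGD. Reep6 was lower in PGC-1α+OGD than in Ctrl+OGD, at 13.4 FPKM. Esyt2, a tether between ER and plasma membrane, was at 15.5 FPKM in PGC-1α+OGD and 9.16 in Ctrl+OGD, and Zfyve27 (protrudin) was at 8.51 FPKM in Ctrl and 5.24 in Ctrl+OGD.

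Of 23 other ER-phagy receptors and partners, 0 were past 1.5-fold in PGC-1α+OGD vs Ctrl+OGD, against 6.90% of all genes. Lower in PGC-1α than in Ctrl were 3 of them, against 5.63% of all genes. These were the receptor Calcoco1 (36.3 to 23.1 FPKM), the ATG8 protein Gabarapl1 (35.9 to 20.4) and Atg16l1 (4.30 to 1.81), which helps to attach ATG8 proteins to membranes. Calcoco1 was at 17.0 FPKM in both OGD libraries, lower than in Ctrl. Between PGC-1α+OGD and PGC-1α, Atg16l1 (to 4.11 FPKM) and the transcription factor Tfe3 of autophagy and lysosome genes (11.4 to 18.2) were higher, and Bnip3 (82.5 to 53.2) was lower.

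UFM1 conjugation marks ER proteins during ER-phagy. Of 10 genes of this process, 2 were lower in PGC-1α vs Ctrl (10.5% of all genes in either direction). In PGC-1α+OGD vs Ctrl+OGD, 2 were higher (6.90%). In Ctrl+OGD vs Ctrl, 2 were higher and 2 lower (13.9%), and in PGC-1α+OGD vs PGC-1α, 3 were higher and 1 lower (9.03%). Odr4 and the protease gene Ufsp1 were lower in PGC-1α vs Ctrl and in Ctrl+OGD vs Ctrl, which share the Ctrl library. They were higher in the other 2 comparisons. Odr4 had 20.9 FPKM in Ctrl and 6.34 in Ctrl+OGD, against 7.38 in PGC-1α and 17.7 in PGC-1α+OGD, and Ufsp1 had 5.98 FPKM in Ctrl and 2.58 in Ctrl+OGD, against 3.01 in PGC-1α and 5.16 in PGC-1α+OGD. Ufsp2 (1.75 times) and the conjugating enzyme Ufc1 (13.2 to 20.6 FPKM) were higher in Ctrl+OGD than in Ctrl, the latter not by 1.5-fold on the fragment scale (0.57). Between PGC-1α+OGD and PGC-1α, the ligase Ufl1 was higher (11.1 to 17.2 FPKM, 0.59 in log2, but 0.56 and so inside 1.5-fold on the fragment scale), and its ER anchor Ddrgk1 was lower (99.0 to 65.2).

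Of 23 other genes of the COPII coat and exit sites, 1 was lower in PGC-1α vs Ctrl (10.5% of all genes in either direction). In PGC-1α+OGD vs Ctrl+OGD, 0 were past 1.5-fold (6.90%). In each OGD comparison, 1 was higher and 1 lower (13.9% in control cells and 9.03% in PGC-1α cells). Mia2, which helps to load large cargo, had 43.6 FPKM in Ctrl and 15.8 in Ctrl+OGD, against 27.2 in PGC-1α and 15.9 in PGC-1α+OGD. It was lower in PGC-1α vs Ctrl and in both OGD comparisons, and the first was inside 1.5-fold on the fragment scale (-0.43). The coat gene Sec13 was higher in Ctrl+OGD than in Ctrl (35.8 to 55.7 FPKM). Preb, which activates the COPII GTPase SAR1, was higher in PGC-1α+OGD than in PGC-1α (8.48 to 14.0 FPKM). The median of this list was 0.19 in Ctrl+OGD vs Ctrl and 0.03 in PGC-1α+OGD vs PGC-1α, each with 17 of 23 genes above 0, against 48.0% and 50.1% of all genes.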

How the data were processed

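The authors enriched poly(A) RNA, built stranded libraries, sequenced paired ends of 150 bases and, per the submitters' processing notes, aligned them to GRCm38 with HISAT2 2.1.0. The deposited values, taken as FPKM per transcript, do not name their unit, and the quantifier, annotation and filter are not given in the sources used here. Of 25889 transcripts, 25822 were matched by identifier without version to GENCODE release M21. Each deposited transcript reached 0.500 FPKM in 1 or more libraries. Transcripts were summed per gene symbol, and 10604 genes whose mean reached 1 FPKM were compared by differences of log2(FPKM + 1), a scale that makes changes of low genes look smaller. Groups came from the sample titles. With 1 library per group no test was run, and depth is unknown.

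The members and lists were chosen with earlier results of these data known. Named are all members, Ppargc1a, and the list genes past 1.5-fold (up to 6 higher and 6 lower per comparison), of which 1 is counted but not reported by name here. Other settings tried were pseudocounts of 0.1 and 0.01, no filter, a mean of at least 5, 3 scalings (median ratio, upper quartile, equal totals), the most abundant transcript and a 2-fold threshold. The fragment scale was added after the data were seen. Promoter windows are from RefSeq (GRCm38.p6) and junctions from GENCODE transcripts. The calling step was run on simulated data with 4-fold changes. How often a 1.5-fold call is wrong with 1 library per group was not tested. The work used pandas 2.3.3 and numpy 2.4.6 under Python 3.11.15, with matplotlib 3.10.9 for plots.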

Additional observations from a re-analysis of the deposited data

Results flagged for a closer look

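In 3 results among the members, the difference between PGC-1α and control cells had the opposite direction with and without OGD at a set size. That size was 1.5-fold in at least 1 of these states for whole genes, and 1.5-fold in both for single transcripts. Genes of the 4 lists are left out of this count. Among them, Odr4 (-1.39 without OGD and 1.35 with it) and Ufsp1 (-0.80 and 0.78) also had opposite directions of that size. Smaller differences of opposite direction are left out, each group had 1 library, and none of this was tested. The share of all genes or transcripts that meet this rule was not computed, so the count cannot be called high or low. For summed Rtn4 the log2 fold change was 0.30 without OGD and -0.84 with it, a difference of -1.14. On the fragment scale it was 0.01 without OGD and -0.81 with it, a difference of -0.83, and for the most abundant transcript it was -0.04 and -0.18, so the opposite direction depended on the scale. For summed Rtn3 it was 0.18 and -0.66, a difference of -0.83. On the fragment scale Rtn3 was at 0.18 and -0.48, a difference of -0.66, with neither value past 1.5-fold. For the transcript Sec16a-208 it was -1.57 and 1.48, a difference of 3.06, while the whole Sec16a gene was at -0.40 and 0.20 in summed FPKM and at -0.21 and -0.34, the same direction, on the fragment scale.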

How the results depend on the processing

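The counts of members past 1.5-fold were 0 for PGC-1α and 2 for PGC-1α+OGD, each against its own control, and after OGD 1 in control cells and 2 in PGC-1α cells. With the most abundant transcript in place of the sum they were 1 and 5 for PGC-1α without and with OGD, and 2 for OGD in control cells. On the fragment scale, chosen after seeing the data, they were 1 for PGC-1α with OGD and 2 for OGD in control cells, and the median for PGC-1α without OGD moved from 0.05 to -0.14. With a 2-fold threshold the count was 0 for PGC-1α with OGD, 0 for OGD in control cells and 1 for OGD in PGC-1α cells. For OGD in control cells the count was 2 with pseudocounts of 0.1 or 0.01, upper quartile scaling or equal totals, and 0 with median ratio scaling. For OGD in PGC-1α cells it was 3, with Atl2 added, with pseudocounts of 0.1 (0.60) or 0.01 (0.61) and on the fragment scale (0.59). The cause of these shifts was not tested. Of 360 values of single members under these settings, 21 changed their side of 1.5-fold, 11 of them with the most abundant transcript. The 360 include 40 values without a filter and 40 with a mean of at least 5. These settings only select genes and could not change the value of a member. None of the values called in summed FPKM changed direction, but values not called there did. With the most abundant transcript, Sec16a went from 0.20 to -1.69 in PGC-1α+OGD vs Ctrl+OGD. Sec16b went from -0.11 to 1.17 in PGC-1α vs Ctrl, and Retreg1 from 0.11 to -1.51 in Ctrl+OGD vs Ctrl. Rtn4 in PGC-1α+OGD stayed past 1.5-fold under each setting but the most abundant transcript, Rtn4-205 (-0.18 against Ctrl+OGD and -0.28 against PGC-1α). No paired analysis was possible because each group has 1 library, and for the same reason no library could be left out. Depth is unknown, so no counting error can be given.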
